A study of Mus musculus with 14 samples.

Results

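The genes of the mitochondrial ribosomal proteins were taken as those whose symbol begins with Mrpl or Mrps and a number, leaving out 5 symbols that hold -ps, the mark of a pseudogene. This gave 78 of the 54446 genes in the table. By their known place in the mitochondrial ribosome, 26 belong to the small subunit and 51 to the large one. The remaining gene, Mrps36, keeps a ribosomal name, but its protein is known as part of the α-ketoglutarate dehydrogenase complex. All 78 genes entered the test, having reached a value of 10 in 6 libraries or more.

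Mitochondria keep their own ribosomes, which make only the few proteins encoded by mitochondrial DNA, all of them membrane subunits of the respiratory chain and ATP synthase. The ribosomal RNAs come from mitochondrial DNA too, while every ribosomal protein is encoded in the nucleus, made in the cytosol and imported. Part of these proteins descend from bacterial ribosomal proteins, and part were added in the evolution of mitochondria. Liver is rich in mitochondria, and hepatocytes rely on them for fatty acid oxidation, the urea cycle and ATP.

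Total RNA was sequenced from liver of C57BL/6 mice, 5 weeks old. The controls were 6 libraries of genotype Mettl3 floxed, for which no Cre is named, and the knockouts were 8 libraries of genotype Mettl3 floxed with Alb-Cre. Alb-Cre is a recombinase driven by the albumin promoter, which is active in hepatocytes and their fetal precursors. Liver cells that do not descend from these precursors keep the gene. Which cells lost it was not measured. METTL3, the enzyme lost, methylates adenosine in mRNA to m6A. The value of a gene is its normalised estimated read count in a library, and changes are log2 of (value + 1), knockout minus control. The labels do not say that each library is 1 animal, so p-values measure the spread between these libraries, which may be partly technical.

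Mettl3 itself had a value of 223 ± 23.7 (SD, n = 6) in controls and 99.5 ± 15.7 (SD, n = 8) in knockouts, and the ranges of 199 to 263 and 76.9 to 122 did not overlap. Depth ran from 11.1 to 33.8 M estimated reads (M, mega) per library. They fell into a pair of classes that the labels do not name, 8 with RNA of Y-linked genes (replicates 1 to 4 of each group, Y-positive) and 6 with high Xist (control replicates 5 and 6, knockout replicates 5 to 8), and the Xist-high libraries were the shallower ones, at 11.1 to 19.3 M. Of 7 hepatocyte markers 5 were lower in knockouts, their summed value being 763182 to 943356 in controls against 362601 to 761660 with Alb-Cre. Of 5 cholangiocyte markers 3 were higher, with sums of 648 to 1221 and 1046 to 3487. Of 5 endothelial markers 2 were lower and of 5 stellate markers 1 was lower, while no Kupffer cell, lymphocyte or erythroid marker passed the limma test, at either an unadjusted p of 0.05 or the authors' q. Under equal library sums, described below, 3 hepatocyte markers were still lower and 3 cholangiocyte markers higher, and no endothelial or stellate marker was lower. None of these markers was at 0 throughout, and the part of these shifts in the results below was not tested. In bulk tissue, fewer cells of a type and less RNA per cell cannot be told apart.

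The mitochondrial ribosomal protein genes did not move as a block. In knockout liver 21 of the 78 were higher, 12 were lower and 45 did not pass the test (limma, adjusted p of at most 0.05 over all 23554 genes tested). Of all genes tested 22.4% passed, 11.5% higher and 11% lower, so that members were called more often than genes at large, at 42.3% of them. Among well expressed genes, which reached a value of 100 in 6 libraries or more, 34.6% of 10865 passed, 15% higher and 19.6% lower. The median change of the members was 0.02, beside 0.05 for all genes tested. The count of lowered members was 5 without control 1, 6 without control 3, and 7 without control 4, control 5 or knockout 3. Knockouts 3, 6 and 7 stood apart in Cdkn1a, a cell cycle inhibitor, with values of 481, 520.4 and 550. The remaining knockouts had 49.9 to 162, and controls had 18.3 to 41.1. Without these 3 libraries 17 members were higher and 5 lower.

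**Figure D1:**
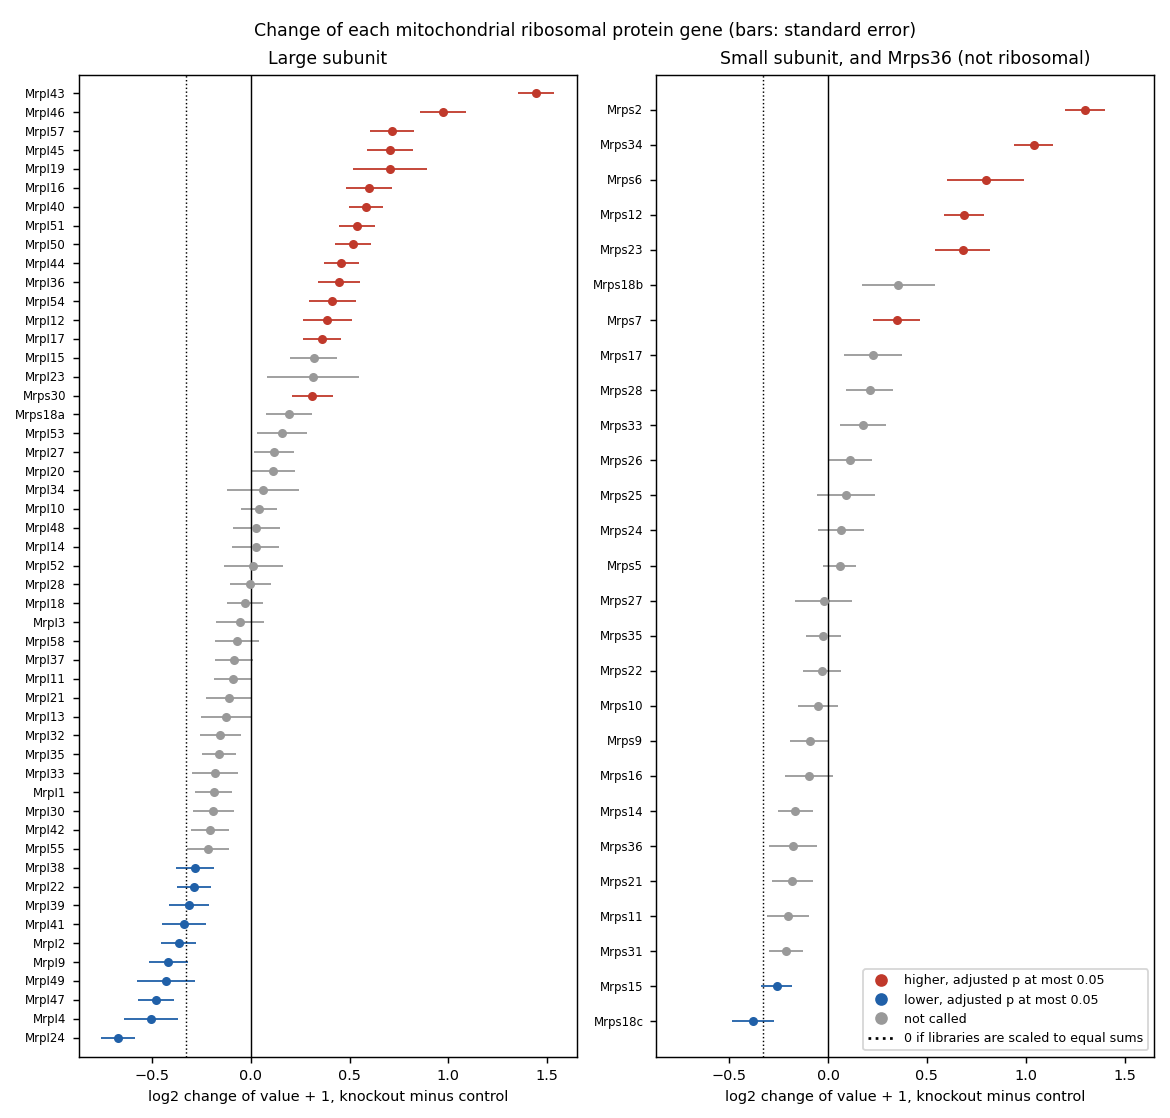
Log2 change of each member, knockout minus control, with its standard error as a bar, large subunit on the left and small subunit on the right. Red members rose, blue members fell and grey ones did not pass the test. The changes run from -0.67 for Mrpl24 to 1.44 for Mrpl43, and the dotted line marks where 0 would lie if libraries were scaled to equal sums.

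The increases were the larger changes. At least 2-fold increases were seen for 3 members, Mrpl43, Mrps2 and Mrps34, and no member fell by that much. For 13 members every knockout library lay above every control library, against 4.14% of all genes tested. For 2 members, Mrpl24 and Mrpl47, every knockout lay below every control, against 4.02% of all genes. Such shares were not counted among well expressed genes, and 2-fold changes were not counted over all genes.

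How many members count as lower depends on the scale. When each library was scaled to the same sum outside ribosomal RNA, the median of all genes rose by 0.329 on the log2 scale, 44 members were called higher and 1 lower, and 33.3% of all genes were called higher and 3.68% lower. All 21 raised members stayed raised on that scale, and of the 12 lowered ones 8 kept a change below 0, but Mrpl24 alone passed (-0.33, limma adjusted p = 0.00577). Quantile normalization gave 23 higher and 8 lower. The authors' deposited table, at a q of at most 0.05, holds 19 members as higher and 8 as lower, all of them also called here, beside 8.82% and 8.26% of the genes it tests.

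Promoter sequence is shown for 2 raised and 2 lowered members, as RefSeq gives it on GRCm38.p6. They are the called members with the largest changes that have a single RefSeq entry and at least 100 upstream bases outside annotated exons. Each line gives the part of the window upstream of the start that lies in no annotated exon, 5′ to 3′ on the strand of the gene. Capitals mark matches, on either strand, to CCGGAA, the core bound by ETS factors such as GABP, in Mrpl43, and to GCGCATGC, the core bound by NRF1, in Mrpl9. GABP and NRF1 are known activators of nuclear genes for mitochondrial proteins. Mrpl43 (chr19:45006443-45006557, minus strand) holds 3 ETS matches in 115 bases, and Mrpl9 (chr3:94443086-94443317, plus strand) holds 2 overlapping NRF1 matches. Mrps2 (chr2:28467816-28468065, plus strand) and Mrpl24 (chr3:87919294-87919505, plus strand) hold no match in the stretch shown to either motif.
Mrpl43: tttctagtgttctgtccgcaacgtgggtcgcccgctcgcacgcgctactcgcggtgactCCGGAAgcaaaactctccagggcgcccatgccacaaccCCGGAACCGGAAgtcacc
Mrps2: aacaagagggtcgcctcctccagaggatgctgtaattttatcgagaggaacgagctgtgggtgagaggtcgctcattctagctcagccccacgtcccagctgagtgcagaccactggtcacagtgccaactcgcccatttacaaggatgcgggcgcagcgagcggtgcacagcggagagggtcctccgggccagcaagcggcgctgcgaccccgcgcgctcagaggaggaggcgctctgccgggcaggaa
Mrpl24: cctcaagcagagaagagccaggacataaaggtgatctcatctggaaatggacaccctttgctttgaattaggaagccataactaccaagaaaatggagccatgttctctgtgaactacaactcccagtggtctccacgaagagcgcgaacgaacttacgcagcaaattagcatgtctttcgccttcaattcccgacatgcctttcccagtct
Mrpl9: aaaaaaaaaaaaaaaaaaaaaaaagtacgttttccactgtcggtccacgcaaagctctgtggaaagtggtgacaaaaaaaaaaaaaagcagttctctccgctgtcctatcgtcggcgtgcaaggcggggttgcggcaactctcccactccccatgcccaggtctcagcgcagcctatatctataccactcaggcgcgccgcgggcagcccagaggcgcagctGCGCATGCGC

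Over the whole windows of 300 bases, 250 before and 50 after the start, 69 of the 78 members had an entry in the RefSeq table. The ETS core was in 40 of the 69 (58.0%), against 16.7% of the 27025 genes in the table and 25.1% of those tested. It was in 10 of 18 raised members, 5 of 10 lowered members and 25 of 41 that were not called. The NRF1 core was in 8 members (11.6%, against 3.05% of all genes in the table and 4.69% of those tested), 1 of them raised and 3 lowered. AAGATGGC, the core bound by YY1, was in 12 (17.4%, against 3.19% and 4.33%), TGACGTCA, the cyclic AMP response element, in 2 (2.90%, against 2.03% and 2.91%), and CACGTG, the E-box of clock and Myc factors, in 5 (7.25%, against 8.09% and 10.2%). Raised and lowered members thus both held the ETS core at about the share seen in members that were not called. Entries for Mrpl13, Mrpl15, Mrpl19, Mrpl38, Mrpl4, Mrpl54, Mrps28, Mrps34 and Mrps35 were not in the table.

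In the small subunit, which binds mRNA and pairs it with tRNA, 6 of 26 members rose and 2 fell, with a median change of 0.06. Mrps2, which sits where the head of the subunit meets the body, had values of 614, 735 and 860 in controls (lowest, median, highest) and of 1594, 1763 and 2291 in knockouts. The 2 groups were far apart, and the change was 1.30 (SE 0.10, limma adjusted p = 1.5e-06). Its gene (ENSMUSG00000035772) lies on chr2:28468066-28471178, plus strand, right after the promoter printed above.

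Mrps34, a protein found only in mitochondrial ribosomes and needed for a stable small subunit, had values of 793, 1009 and 1195 in controls and of 1807, 2087 and 2237 in knockouts. Every knockout lay above every control, with a change of 1.04 (SE 0.10, limma adjusted p = 6.35e-06). The gene (ENSMUSG00000038880, chr17:24895116-24897502, plus strand) shares 763 exon bases with Nme3 on its own strand and 1309 with Mapk8ip3 on the other. Neither neighbour passed the test (Nme3 -0.42, limma adjusted p = 0.0938, and Mapk8ip3 0.16, limma adjusted p = 0.507).

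Mrps12, the protein of the decoding centre, had values of 658, 802 and 870 in controls and of 1084, 1251 and 1683 in knockouts. The groups did not overlap, and the highest value, in knockout replicate 5, stood apart from the other knockouts at 1084 to 1335. The change was 0.69 (SE 0.10, limma adjusted p = 0.000298). Mrps6, a protein of the platform of the subunit, had 189, 232 and 278 in controls and 283, 372 and 663 in knockouts. Here the groups nearly touched, and the change of 0.80 carried a larger error (SE 0.19, limma adjusted p = 0.00831).

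Mrps23, which has no bacterial counterpart, rose by 0.68 (SE 0.14, limma adjusted p = 0.00264), from 437, 521 and 661 in controls to 658, 877 and 1220 in knockouts, with 7 of 8 knockouts above all controls. The sixth raised member, Mrps7, which binds the 3′ part of the small ribosomal RNA, changed by 0.35 (SE 0.12, limma adjusted p = 0.0455). The call on Mrps7 was lost without any 1 library but knockout 3, control 1 or control 4 (limma adjusted p of 0.0511 to 0.105). Lower were Mrps18c at -0.38 (limma adjusted p = 0.020) and Mrps15, a protein that binds the ribosomal RNA early in assembly, at -0.26 (limma adjusted p = 0.0293). Under equal sums Mrps15 was at 0.08.

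The Mrps18 paralogs, which occupy different places in the ribosome, gave different values. Mrps18c, the version in the bacterial position of the small subunit, had 319, 393 and 456 in controls and 258, 280.2 and 377 in knockouts, with 6 of 8 knockouts below all controls. Mrps18b, also in the small subunit, had 505, 628 and 670 in controls and 520.1, 776 and 1334 in knockouts, a change of 0.36 with a wide error (SE 0.19, limma adjusted p = 0.186). Mrps18a, which sits in the large subunit despite its name, changed by 0.19 (SE 0.12, limma adjusted p = 0.253). The paralogs were not tested against each other.

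**Figure D2:**
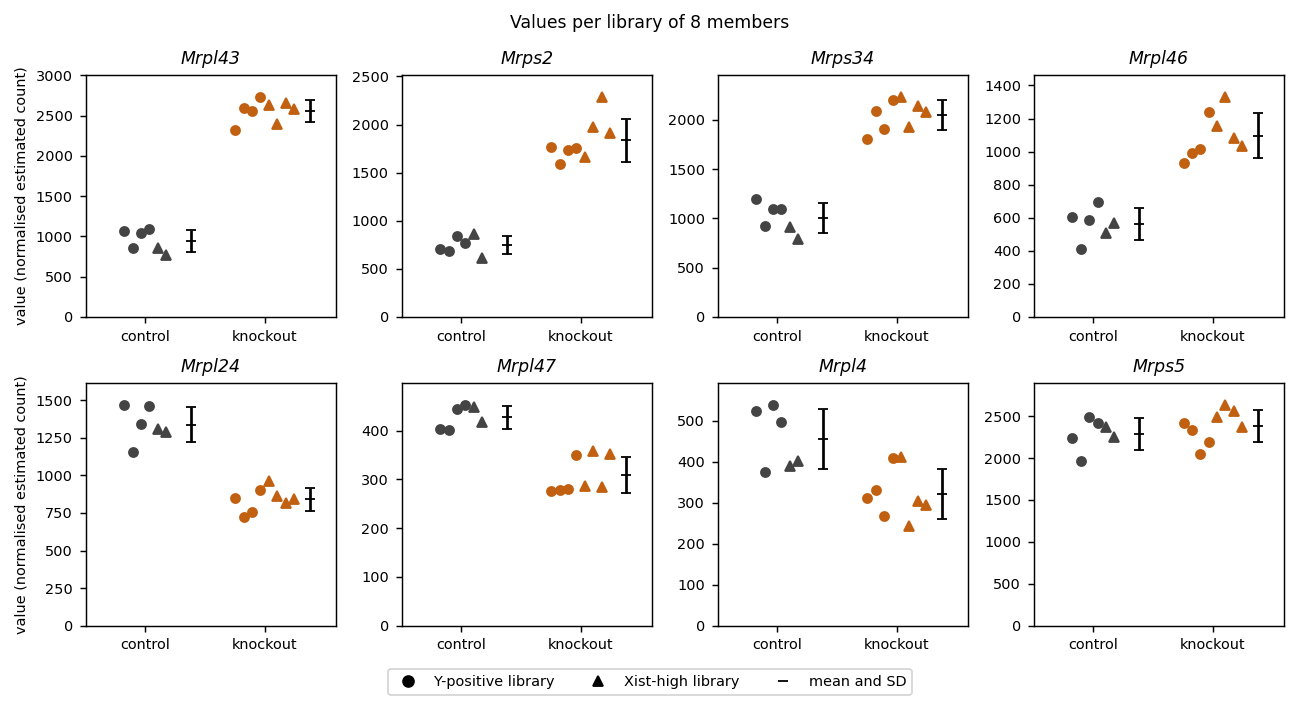
Values of 8 members in each library, with circles for Y-positive and triangles for Xist-high libraries and the mean and SD of each group beside them. Mrpl43, Mrps2, Mrps34 and Mrpl46 in the upper row lie higher in every knockout library, Mrpl24 and Mrpl47 lie lower in every one, Mrpl4 overlaps, and Mrps5 (0.06, SE 0.08) shows a member that did not pass the test.

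In the large subunit, which joins amino acids and feeds the chain into the exit tunnel, 15 of 51 members rose and 10 fell, with a median change of 0.01. Mrpl43, a protein known only from mitochondrial ribosomes, changed most of all members. It had values of 766, 948 and 1089 in controls and of 2324, 2589 and 2736 in knockouts. The lowest knockout was above the highest control by more than the whole spread of either group, and the change was 1.44 (SE 0.09, limma adjusted p = 3e-07).

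The increase in Mrpl43 was there in both classes of library, at 1.34 in the Y-positive and 1.66 in the Xist-high ones. Mrpl43 (ENSMUSG00000025208, chr19:45004829-45006442, minus strand) shares 507 exon bases with Twnk on the opposite strand. Twnk encodes the mitochondrial DNA helicase and did not pass the test, at -0.22 (SE 0.10, limma adjusted p = 0.124).

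The central protuberance, the ridge of the large subunit that faces the small one, holds several members known only from mitochondria. Mrpl46 had 408, 579 and 696 in controls and 930.2, 1056 and 1333 in knockouts, without overlap, and rose by 0.97 (SE 0.12, limma adjusted p = 5.8e-05). Mrpl40 had 426, 484 and 587 in controls and 696, 731 and 842 in knockouts, also without overlap, and rose by 0.58 (SE 0.09, limma adjusted p = 0.000298). Mrpl38, their neighbour there, was lower at -0.28 (SE 0.10, limma adjusted p = 0.0457), or 0.06 under equal sums, and its call rests on single libraries, as given with the other decreases.

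Other members lie around the exit of the tunnel. Mrpl45, which anchors the ribosome at the inner membrane, had 310, 395 and 482 in controls and 532, 664 and 762 in knockouts and rose by 0.71 (SE 0.12, limma adjusted p = 0.00057). Every knockout lay above every control. Mrpl24, a protein at the tunnel exit, was the member that fell most, with 1158, 1327 and 1467 in controls and 725, 848 and 960 in knockouts. All 8 knockouts lay below all controls, and the change was -0.67 (SE 0.08, limma adjusted p = 8.19e-05), or -0.74 within the Y-positive class and -0.58 within the Xist-high one.

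Mrpl24 (ENSMUSG00000019710, chr3:87919506-87923672, plus strand) shares 594 exon bases with Rrnad1 on the opposite strand, which was lower too (-0.34, limma adjusted p = 0.0289). Mrpl47, another protein at the tunnel exit, had 401, 430.5 and 452 in controls and 277, 286 and 358 in knockouts and fell by 0.48 (SE 0.09, limma adjusted p = 0.00173). Mrpl4, which lines the tunnel, had 375, 449 and 538 in controls and 244, 308 and 412 in knockouts. It fell by 0.50 (SE 0.14, limma adjusted p = 0.0143), and 6 of 8 knockouts were below all controls. Mrpl39 and Mrpl22, both near the tunnel, were at -0.31 (limma adjusted p = 0.0348) and -0.28 (limma adjusted p = 0.0267). Under equal sums Mrpl39, Mrpl22 and Mrpl38 turned to 0.03, 0.05 and 0.06.

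Near the centre that forms the peptide bond, Mrpl16 rose and Mrpl2 fell. Mrpl16 had 537, 651 and 727 in controls and 823, 968 and 1251 in knockouts, without overlap, with a change of 0.60 (SE 0.12, limma adjusted p = 0.00198). Mrpl2 had 902, 1089 and 1161 in controls and 722, 809 and 939.7 in knockouts, which overlapped, with a change of -0.36 (SE 0.09, limma adjusted p = 0.0082).

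Mrpl12, a protein of the stalk that recruits elongation factors, was the most abundant member, with 5777, 6962 and 8747 in controls and 7768, 9699 and 11188 in knockouts. Its change was 0.39 (SE 0.12, limma adjusted p = 0.0350), with 5 of 8 knockouts above all controls. The call was lost without knockout 2, 4, 5, 7 or 8 or control 2, 5 or 6 (limma adjusted p of 0.0502 to 0.0858), and the authors' deposited table gives a q of 0.0580. Mrpl15, another of the 3 members with the highest means, changed by 0.32 (SE 0.12, limma adjusted p = 0.0659).

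Mrpl57, a small protein known only from mitochondrial ribosomes, had 2283, 2931 and 3585 in controls and 4289, 4733 and 5181 in knockouts. These ranges were well apart, and the change was 0.72 (SE 0.11, limma adjusted p = 0.000398). Mrpl19 was the member with the lowest mean, with 105, 176 and 204 in controls and 186, 254 and 394 in knockouts, and it rose by 0.70 (SE 0.19, limma adjusted p = 0.0143) with 7 of 8 knockouts above all controls. It shares 1962 exon bases with Gcfc2 on the opposite strand, which was at -0.32 (limma adjusted p = 0.302). The 9 raised members outside the 12 largest increases, Mrps7 and Mrpl12 among them, changed by 0.31 to 0.54. Of these the call on Mrpl54 was lost without control 5 or 6 (limma adjusted p of 0.0517), and the call on Mrps30, a large subunit protein despite its name, without knockout 1, 3, 6 or 7 or any control but 1 (0.0538 to 0.0866).

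The remaining lowered members were Mrpl49 at -0.43 (limma adjusted p = 0.0443), Mrpl9 at -0.42 (limma adjusted p = 0.00681) and Mrpl41 at -0.34 (limma adjusted p = 0.0384). Mrpl9, whose promoter holds the NRF1 core, had 1102, 1372 and 1620 in controls and 837, 1027 and 1138 in knockouts, with 5 of 8 knockouts below all controls. With any 1 library left out, 17 of the 21 raised members kept their call, and 5 of the 12 lowered ones did, namely Mrpl24, Mrpl4, Mrpl47, Mrpl9 and Mrpl2. The call was lost for Mrpl49 without knockout 2, 3, 6 or 7 or control 1, 3, 4 or 5 (limma adjusted p of 0.0659 to 0.101), and for Mrpl41 without knockout 1, 2, 3 or 8 or control 1, 3, 4, 5 or 6 (0.0572 to 0.0815). It was lost for Mrpl38 without knockout 1, 2, 3, 6, 7 or 8 or control 1, 3, 4 or 6 (limma adjusted p of 0.0533 to 0.105), and for Mrpl39 without knockout 3, 4, 6, 7 or 8 or any control but 2 (0.0525 to 0.0763). It was lost for Mrpl22 without control 1, 3, 4 or 5 (limma adjusted p of 0.0517 to 0.0668), for Mrps15 without knockout 3 or 4 or control 1, 3, 5 or 6 (0.0501 to 0.0632), and for Mrps18c without control 1 (0.0522). In the authors' deposited table Mrpl39, Mrpl22, Mrpl38 and Mrps15 have q values of 0.0673, 0.105, 0.0884 and 0.137.

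The 45 members that did not pass had changes from -0.22 to 0.36, with SEs of 0.08 to 0.23. The most precise of them were Mrps5 at 0.06 (SE 0.08), Mrpl35 at -0.16 (SE 0.09) and Mrps31 at -0.21 (SE 0.09), with limma adjusted p values of 0.657, 0.197 and 0.0859. Under equal sums 23 of the 45 were called higher, and Mrpl35 and Mrps31 turned to 0.18 and 0.12. Mrpl58, which releases chains from stalled ribosomes, was among the 45, at -0.07.

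By origin the counts differed, and the difference was not tested. Mrps18a and Mrps18b were counted as mitochondrion-specific, although their paralog Mrps18c was counted with the bacterial families. Neither of them passed the test, so they enter the totals and medians but not the counts that rose or fell. Of the 31 mitochondrion-specific members 12 rose and 4 fell, with a median of 0.16. Of the 46 of bacterial families 9 rose and 8 fell, with a median of -0.05 (0.50 and 0.29 under equal sums). The shares called were 51.6% and 37.0%, beside 22.4% of all genes tested and 34.6% of well expressed genes. Under equal sums 22 and 22 were called higher and 0 and 1 lower, beside 33.3% and 3.68% of all genes. In the large subunit 10 of 21 mitochondrion-specific members rose and 4 fell (median 0.19, or 0.53 under equal sums). Of 30 of bacterial families there 5 rose and 6 fell (median -0.07, or 0.27 under equal sums). In the small subunit the counts were 2 and 0 of 10 (median 0.10; 1 was lower at an unadjusted p of 0.05 by limma and 0 by the authors' q), against 4 and 2 of 16 (median 0.00).

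Levels can be compared between members only per length. Per kilobase of the longest coding transcript, the mean control value ran from 33.1 for Mrpl19 to 5486 for Mrpl12, with a median of 499 over the 78. The highest and lowest values per kilobase thus differed 166-fold. The range rests on single members, as the next highest was Mrpl52 at 2936. Mrpl19 was divided by a longest coding transcript of 5 kb, and which transcripts the liver makes was not measured. The motif GGACT, a common form of the site that METTL3 methylates, occurred at a median of 1.02 per kilobase in raised members, 1.09 in lowered and 1.01 in members not called, beside 1.03 in all coding genes tested. m6A itself was not measured in these libraries.

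Summed over the 78 members, the value was 66680 to 84728 in controls (mean 75006 ± 7886, SD, n = 6) and 78619 to 92080 in knockouts (mean 85984 ± 4826, SD, n = 8), and the groups overlapped. As a share of all values outside ribosomal RNA, the members made up 0.317%, 0.348% and 0.364% in controls (lowest, median, highest) and 0.432%, 0.496% and 0.565% in knockouts. The shares did not overlap, in libraries where the abundant hepatocyte RNAs given above were lower. These sums were not tested.

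**Figure D3:**
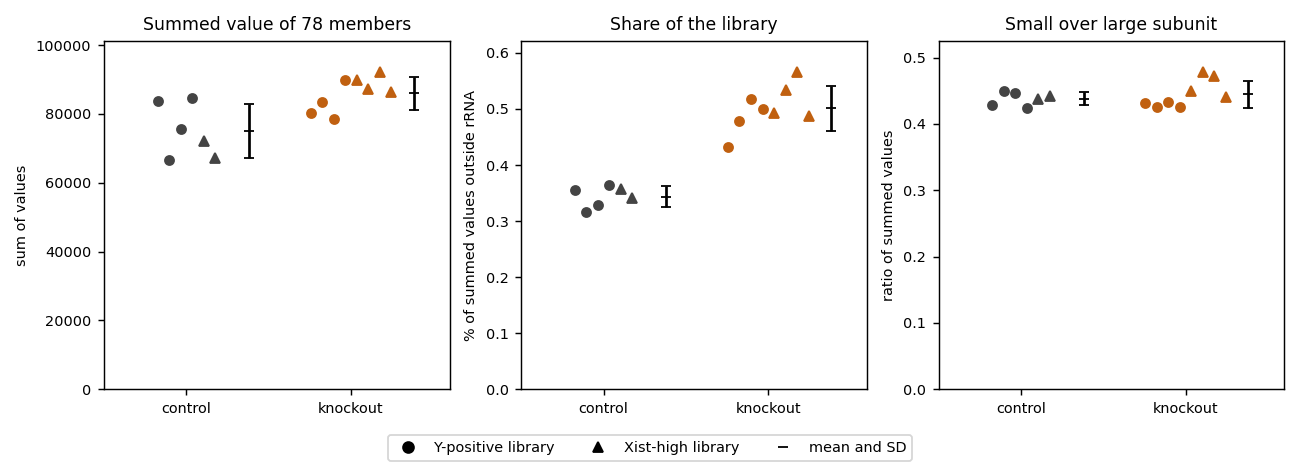
Summed value of the 78 members, their share of all values outside ribosomal RNA, and the ratio of small to large subunit sums, for each library with the mean and SD of each group. Sums overlap between groups, shares run from 0.317% to 0.364% in controls and from 0.432% to 0.565% in knockouts, and the ratio is highest in knockouts 6 and 7.

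The summed values of the small and large subunits were also set against each other. They are not scaled for length, so abundant members such as Mrpl12 weigh most. The ratio of small to large subunit sums ran from 0.424 to 0.450 in controls and from 0.425 to 0.478 in knockouts. Y-positive knockouts had 0.425 to 0.433 and Xist-high knockouts 0.440 to 0.478. Y-positive controls had 0.424 to 0.450 and Xist-high controls 0.438 to 0.442. The highest ratios were those of knockouts 6 and 7, at 0.478 and 0.472. In the same pair of libraries mitochondrially encoded mRNAs made up 7.85% and 7.91% of all values, ribosomal RNA included. The other 12 libraries had 2.77% to 5.47%. Knockouts 6 and 7 also had the highest Cdkn1a, given above, while knockout 3, high in Cdkn1a too, had a ratio of 0.433. What part the class, the mitochondrial mRNAs or Cdkn1a had in the ratio was not tested.

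The members were also tested within each class of library, with 4 controls and 4 knockouts in the Y-positive and 2 and 4 in the Xist-high class. In the Y-positive libraries alone 11 members rose and 5 fell (7.39% and 8.3% of all genes), and in the Xist-high libraries alone 5 rose and 0 fell (0.73% and 0.2% of all genes). Beside that 0, 4 members were lower at an unadjusted p of 0.05 by limma in the Xist-high libraries, and no other tool was run on them. The 5 were Mrpl43, Mrps2, Mrps34, Mrpl46 and Mrpl57, and all 5 also rose in the Y-positive libraries alone. The median change of the members was -0.07 in the Y-positive and 0.17 in the Xist-high libraries. A test of the difference itself, the interaction of genotype and class in limma, called 0 of the 78 members (lowest limma adjusted p = 0.807), with 12 at an unadjusted p of 0.05 and 71 of 78 estimates above 0. The median interaction was 0.28 for members and 0.05 for all genes, of which 13 passed. How many of all genes had an unadjusted p of 0.05 or an estimate above 0 was not counted. Members can shift together within a library. In control 6, 1 of the 2 Xist-high controls, their median change against the control mean was -0.17, and its part was not tested. The classes also differ in depth, as given above, and the part of depth was not tested.

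Members were next set beside the coding gene that starts close to them on the opposite strand. Many members lie head to head with such a gene. In some pairs the starts overlap, as for Mrpl43 and Twnk, and whether a pair shares a promoter was not tested. With start sites within 1000 bases, 31 members formed 30 such pairs in which both genes were tested. In 2 pairs both genes were lower, in 2 they changed in opposite directions, in 14 only the member passed, in 6 only the neighbour and in 6 neither. Of 12 raised members in these pairs, 0 had a raised neighbour by limma, 2 had a lowered one and 10 had one that did not pass, against 11.5% of all genes called higher and 11% lower. Among well expressed genes, as defined above, 15% were called higher and 19.6% lower. Over all 30 neighbours 0 were raised and 10 lowered, with a median change of -0.19, while 1 was higher at an unadjusted p of 0.05 and 0 by the authors' q. In the pair of Mrpl46 and Mrps11 both genes are members, and Mrps11 was counted as the neighbour. Counted the other way round, the neighbour Mrpl46 was raised, at 0.97. Under equal sums 7 neighbours were higher, 3 lower, and both genes rose in 3 pairs.

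Mrps34 and Eme2 were the clearest pair of opposite changes. Eme2, a subunit of a structure-specific DNA endonuclease, starts 29 bases from Mrps34 on the other strand and had 151, 173 and 198 in controls and 53.2, 68.0 and 82.5 in knockouts. It fell by 1.31 (SE 0.12, limma adjusted p = 4.72e-06) where Mrps34 rose by 1.04, and neither gene's groups overlapped. Under equal sums Eme2 was at -0.98 (limma adjusted p = 3.5e-05). Mrpl36 rose by 0.45 (SE 0.11, limma adjusted p = 0.00761) beside Ndufs6, a subunit of respiratory complex I, at -0.28 (limma adjusted p = 0.0188), which turned to 0.06 under equal sums.

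Mrpl46 and Mrps11 are both members and lie head to head. They share 173 exon bases on opposite strands, and were at 0.97 and -0.20 (limma adjusted p = 5.8e-05 and 0.183). Mrps12 lies head to head with Sars2, the mitochondrial seryl-tRNA synthetase, which was at -0.17 (limma adjusted p = 0.327). Lower together were Mrpl2 with Klc4 (-0.36 and -0.67) and Mrpl41 with Pnpla7 (-0.34 and -0.61). How the authors' counting treated strand is not stated, so reads from overlapping exons may be split between partners. Such exon overlap with a gene on the opposite strand was found for 28 members, and with a gene on the same strand for 8. A processed pseudogene at least 95% identical over at least 200 bases was found for 18 members, and for Mrpl23, Mrpl51, Mrps18b and Mrps33 such a copy had a mean value of at least 100, so that reads may have been split with it.

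**Figure D4:**
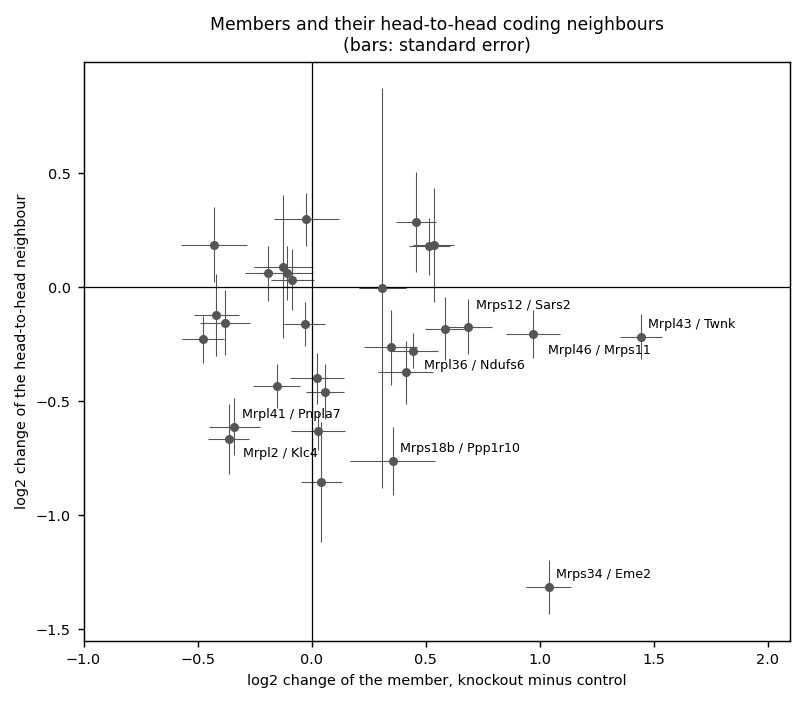
Log2 change of each member (horizontal axis) against that of its head-to-head coding neighbour (vertical axis), with standard errors as bars, for 30 pairs. Mrps34 and Eme2 stand at the lower right with 1.04 and -1.31, and Mrpl43 and Mrpl46 lie to the right with neighbours at -0.22 and -0.20.

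The other proteins of mitochondrial translation gave a mixed picture as well. Of 5 ribosomal subunits with other names, Gadd45gip1 of the large subunit rose by 0.47 (limma adjusted p = 0.0169), Aurkaip1 of the small subunit fell by 0.40 (limma adjusted p = 0.0127), and Dap3, Ptcd3 and Chchd1 did not pass. Of 25 factors that assemble the ribosome 6 rose and 1 fell (median 0.05). The share called was 28%, beside 22.4% of all genes tested and 34.6% of well expressed genes. For 5 of the 6 the groups did not overlap, beside 4.14% of all genes tested with every knockout above every control. Ddx28, a helicase of large subunit assembly, rose by 1.37 (SE 0.12, limma adjusted p = 5e-06), from 330.4 to 393 in controls to 718 to 1279 in knockouts. Mrm3, which methylates the large ribosomal RNA, rose by 1.34 (SE 0.11, limma adjusted p = 2e-06), from 146 to 166 in controls to 303 to 525.6 in knockouts. Both changes lay between those of Mrps2 and Mrpl43. Mettl15, which methylates the small ribosomal RNA, rose by 0.92 (limma adjusted p = 0.0102).

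Of 13 translation factors 2 rose and 2 fell (median 0.04), among them the elongation factor Tsfm at 0.69 (limma adjusted p = 0.00128) and the initiation factors Mtif3 and Mtif2 at -0.57 (limma adjusted p = 0.00121) and -0.37 (limma adjusted p = 0.0184). Of 17 mitochondrial tRNA synthetases 4 rose and 3 fell (median -0.11), with Pars2 for proline at 1.54 (limma adjusted p = 3.7e-05), Ears2 for glutamate at 1.28 (limma adjusted p = 2.1e-05) and Mars2 for methionine at -0.73 (limma adjusted p = 0.000433). Of 20 genes of mitochondrial RNA expression 2 rose and 4 fell (median -0.03), with the RNA-binding protein Grsf1 at -0.71 (limma adjusted p = 0.000124), the elongation factor Tefm at 0.64 (limma adjusted p = 0.000578) and Mterf1a at -0.58 (limma adjusted p = 0.0170). Of 11 regulators of mitochondrial biogenesis only Myc passed, at 1.94 (SE 0.50, limma adjusted p = 0.0120), while Nrf1, Gabpa and Ppargc1a were at 0.02, 0.15 and 0.27. Of the translation factors 30.8% passed, of the tRNA synthetases 41.2%, of the RNA expression genes 30% and of the regulators 9.09%. These shares stand beside 22.4% of all genes tested and 34.6% of well expressed genes. Under equal sums the medians of these lists were 0.39 for assembly factors, 0.38 for translation factors, 0.23 for tRNA synthetases, 0.31 for RNA expression and 0.47 for regulators, beside 0.38 for all genes tested.

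On the deposited scale the RNAs that these ribosomes read and contain gave no call, and on equal sums 2 of them did. Of the 13 mitochondrially encoded mRNAs 0 passed in limma, 1 was higher at an unadjusted p of 0.05 and 0 passed the authors' q (median -0.11, or 0.23 under equal sums). The smallest p was that of mt-Nd1, at 0.68 (limma adjusted p = 0.0844). Under equal sums mt-Nd1 was at 1.02 (limma adjusted p = 0.0129) and mt-Nd3 at 0.69 (limma adjusted p = 0.0392), and both passed as higher. The 2 ribosomal RNAs, mt-Rnr1 and mt-Rnr2, were at 0.14 and -0.03, with 0 passing by limma, adjusted or not, or by the authors' q.

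Values of a pair of related lists are given beside the members, with 11.5% of all genes called higher and 11% lower. Under equal sums 33.3% of all genes were called higher and 3.68% lower. Of 80 nuclear respiratory chain genes 2 rose and 32 fell (median -0.25, which becomes 0.09 under equal sums, with 11 higher and 0 lower). At an unadjusted p of 0.05 by limma 3 were higher and 51 lower, and by the authors' q 2 and 22. Of 87 cytosolic ribosomal protein genes 7 rose and 0 fell (median 0.33, which becomes 0.67 under equal sums, with 62 higher), with 27 higher and 0 lower at an unadjusted p of 0.05 and 7 and 0 by the authors' q. This list was taken by symbol and holds some entries without an annotated coding transcript, such as Rps12l1 and Rpl32l. Rps4l, also without one, is among the raised genes (0.78, limma adjusted p = 0.00717). The members had a median of 0.02. The lists were not tested against each other.

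**Figure D5:**
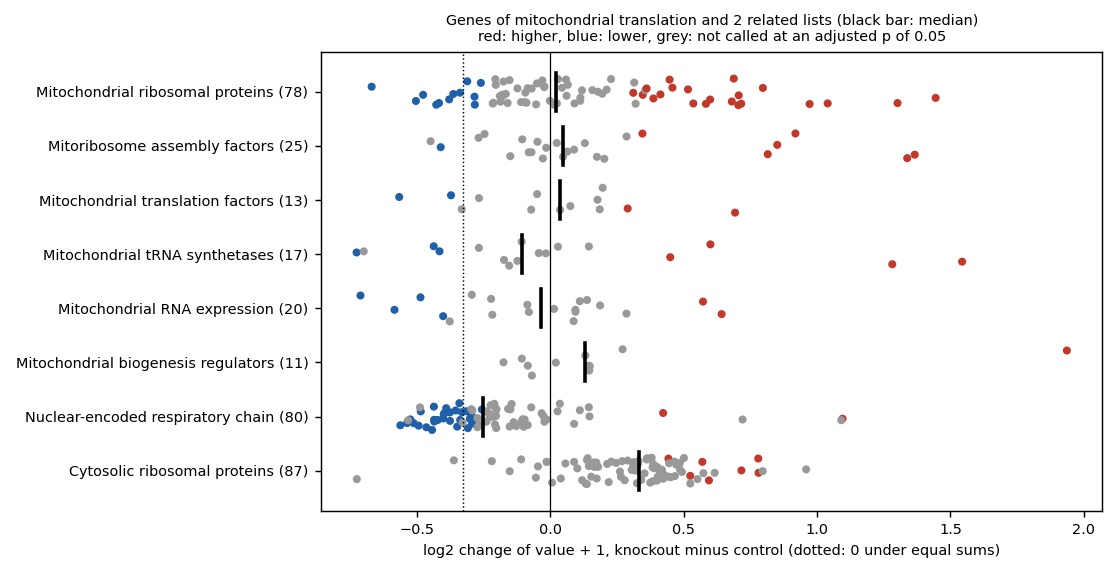
Log2 changes of the members, 5 lists of mitochondrial translation and gene expression, nuclear respiratory chain genes and cytosolic ribosomal protein genes, 1 point a gene, with a black bar at each median and the number of genes in brackets. The members have points on both sides of 0 around a median of 0.02, the respiratory chain genes centre at -0.25 (0.09 under equal sums) and the cytosolic ribosomal protein genes at 0.33.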

How the data were processed

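Liver total RNA was measured in 6 control and 8 knockout libraries. Per the submitters' processing notes, the authors used kallisto, mm10 and sleuth. The deposited signal values are kallisto's estimated counts over a size factor for each library, as read from the values. The deposited p-values and q-values come from sleuth's Wald test. The authors' deposited natural log change is control minus knockout, and its sign was turned for directions. The 75859 lines were reduced to 54446 genes.

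Genes that reached a value of 10 in 6 libraries or more were tested with limma 3.58.1 (R 4.3.3, trended variance) on log2(value + 1), Benjamini-Hochberg adjusted over all genes, at a threshold of 0.05. The pipeline was tested on simulated data. Estimated values carry no counting interval, and low values in shallow libraries are the least precise. Positions, exons and start sites came from GENCODE M21 on GRCm38, and all 78 members matched. Named were the 12 largest called changes in each direction, the 3 members with the smallest SE among those not called, the 3 highest means, the Mrps18 paralogs, and up to 3 called genes of each other list. Members named beyond this rule were chosen after their values were seen. Members and lists were chosen with earlier results of these data known. Alternatives were another threshold, filter, pseudocount, scaling, covariate or set of libraries, and the authors' q.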

Additional observations from a re-analysis of the deposited data

Results flagged for a closer look

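Of 33 results looked at in both groups (66 groups of libraries), 3 had a library far from the others of its group, where chance gives about 1 in 20. Mrps12 had a value of 1683 in knockout replicate 5, the highest of its group, with the other knockouts at 1084 to 1335. Mrpl39 had 1670 in control replicate 2, the lowest, with the other controls at 1948 to 2113. Mrps18b had 505 in the same control library, with the others at 612 to 670. Control replicate 2 also had the lowest summed value of the members, at 66680.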

How the results depend on the processing

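With 6 and 8 libraries, changes under about 0.3 on the log2 scale mostly did not pass, and calls near the threshold move with single libraries. Across the alternatives, single named members kept direction and side of the threshold in 681 cases, lost the call in 139, gained one in 10 and turned in 7. The median of all members stayed from -0.02 to 0.05, of the small subunit from 0.02 to 0.09 and of the large one from -0.03 to 0.05 when 1 library was left out. Leaving out 1 library gave 17 to 21 higher and 5 to 12 lower.

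At a threshold of 0.01, 15 were higher and 4 lower. Under equal sums 44 were higher and 1 lower, with medians of 0.36 for all, 0.40 for small and 0.35 for large subunit members, and Mrpl39 (0.027), Mrpl22 (0.054), Mrpl38 (0.055), Mrps15 (0.078), Mrpl35 (0.18) and Mrps31 (0.12) turned positive. Without knockouts 3, 6 and 7, 17 were higher and 5 lower. With Y-positive libraries alone 11 were higher and 5 lower, the small subunit median was -0.0553 and Mrps5 turned to -0.014. With Xist-high libraries alone 5 were higher and 0 lower by limma (24 and 4 at an unadjusted p of 0.05), with medians of 0.17, 0.20 and 0.16. No filter gave 18 and 8, quantile normalization 23 and 8. These alternatives hold fewer libraries, a stricter threshold, more genes tested or another scale, and beyond that the cause was not tested.

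With the replicate number 1 to 6 as a block, 14 were higher and 5 lower, in 12 libraries. The numbers share no stated animal or day. Deviations of same-numbered libraries correlated at 0.228, 0.225, 0.0707, 0.191, 0.142 and 0.158, and 3 of 6 knockouts correlated best with their own number. Same-numbered libraries are also of the same Y-positive or Xist-high class. The deviations were taken from group means, so these correlations cannot tell a shared number from a shared class.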
